A study of Homo sapiens with 2 samples.

Results

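This account covers 40 genes of nucleotide synthesis and one-carbon metabolism in a ChIP-seq experiment on CAL27, an established line from a human tongue cancer. The cells carried a lentivirus for KLF7 with a myc tag. An anti-MYC antibody (D3N8F) precipitated 1 chromatin library (ChIP), and 1 input library came from the same kind of cells without antibody. Neither was replicated, no library from cells lacking the tagged protein was analysed, and tagged KLF7 and the cells' own MYC cannot be told apart in these libraries. The members were taken by symbol, as genes named exactly in the gene-feature entries of the deposited peak table. Of the 40 members, 14 were named at 16 of the 1900 peaks, and 26 were named at none. For comparison, 1269 of 20007 protein-coding genes of GENCODE v44 had an entry.

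Nucleotides are built along connected routes. The purine ring is assembled on phosphoribosyl pyrophosphate and converted to AMP or GMP, the pyrimidine ring is closed before it is joined to the sugar, and ribonucleotide reductase and thymidylate synthase supply the precursors of DNA. Serine gives carbon units to folate, folate gives them to purines and thymidylate, and the methionine cycle supplies methyl groups and the aminopropyl groups that extend ornithine-derived putrescine to longer polyamines. Several of these enzymes, among them CAD and ornithine decarboxylase (ODC1), are textbook targets of MYC, which binds with MAX at the E-box CACGTG. KLF factors bind GC-rich boxes with the core GGGCGG.

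The sequences shown are from around the summits, the positions of greatest ChIP coverage. CACGTG lay within 100 bp of the summit at 5 of 16 member peaks (31.2%), of PFAS, ATIC, NME1, NME2 and MTHFD1L, at 7 positions in all. The share was 26.2% at the 861 other peaks within 2000 bp of a canonical protein-coding start. GGGCGG lay at 12 of 16 member peaks (75.0%), against 70.5% of those other peaks, and its positions are not printed. Each CACGTG is shown as 30 bases of GRCh38 on the strand of the gene, with the E-box in capitals, so that the bases flanking it can be compared. Positions were chr17:8249325-8249354 for PFAS, chr2:215312001-215312030 and chr2:215312076-215312105 for ATIC, and chr17:51153581-51153610 for NME1. They were chr17:51166699-51166728 and chr17:51166749-51166778 for NME2, and chr6:150866320-150866349 for MTHFD1L.
PFAS: gagtgcatcttcCACGTGagtatagttacc
ATIC, upstream site: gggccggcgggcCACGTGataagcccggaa
ATIC, downstream site: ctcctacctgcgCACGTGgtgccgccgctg
NME1: agtgctgcgaacCACGTGggtcccgggcgc
NME2, upstream site: cggccgggaagcCACGTGtccccgcggccg
NME2, downstream site: accggcggcgccCACGTGgcctccgcgggc
MTHFD1L: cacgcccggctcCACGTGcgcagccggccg

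The 3 member peaks of highest fold enrichment without CACGTG were those of GART, AHCY and RRM2. They are shown as 30 bases on the strand of the gene around the summit, whose base is in capitals, at chr21:33542078-33542107, chr20:34303053-34303082 and chr2:10120652-10120681, so that they can be read beside the E-boxes.
GART: ccggcgagcgggcaaGcgggaaccaggtgg
AHCY: cgcgcggccatgagcGggccgttccgggtg
RRM2: gcgtggccctgggcGccgccacctcctccg

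Peaks were listed at genes of every route except serine synthesis. Of the 40 members, 35% had a peak entry (14 genes, 95% Wilson interval 22.1 to 50.5%), compared with 6.34% of all protein-coding genes. The share was 28.6% for purine genes (4 of 14, 11.7 to 54.6%) and 38.5% for pyrimidine and deoxynucleotide genes (5 of 13, 17.7 to 64.5%). Of these 5, 2 are the adjacent genes NME1 and NME2, and the authors' pathway field lists NME2 under purine metabolism as well. The share was 50% for folate genes (2 of 4, 15 to 85.0%) and 50% for methyl donor and polyamine genes (3 of 6, 18.8 to 81.2%). None of the 3 serine genes, PHGDH, PSAT1 and PSPH, had an entry, and with so few genes the interval reaches 56.1%. The intervals of all routes overlap, so the routes cannot be ranked. Genes are not replicates, the intervals cover counting error only, and neighbouring genes can share a peak. The members were chosen with earlier results of these data known, so their share is not an independent comparison with that of all genes. Protein-coding genes were counted whether or not they are expressed in these cells.

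**Figure D1:**
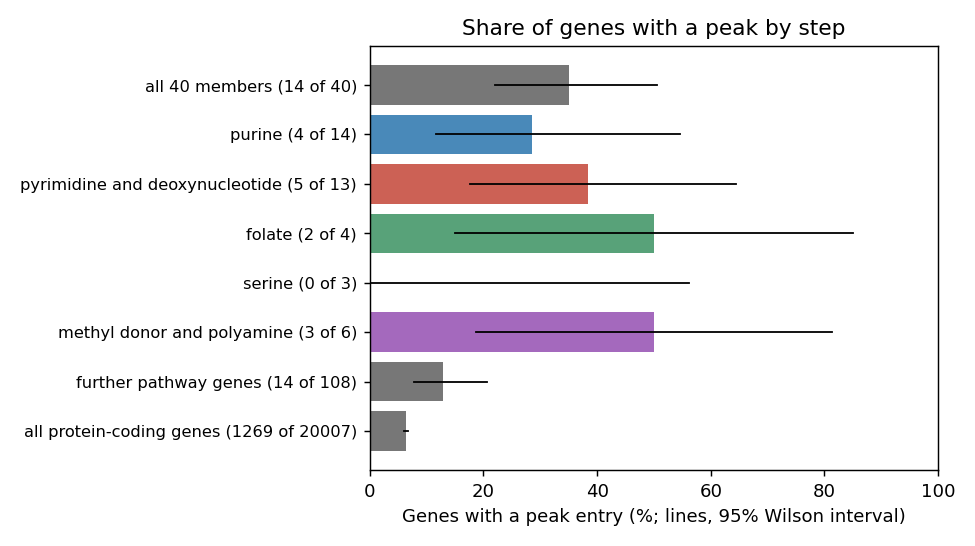
Bars give the percentage of genes with a peak entry for the 40 members, for each route, for 108 further pathway genes and for all protein-coding genes, and lines give 95% Wilson intervals. The bar of all members stands at 35% and that of all protein-coding genes at 6.34%, while the serine bar is at 0.

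The label promoter in the deposited annotation covered only part of these peaks. PFAS, TYMS, RRM2, NME1 and MTHFD1 had a promoter entry (12.5% of members, 5.46 to 26.1%), against 2.13% of protein-coding genes. The other 9 genes were entered at an intron, exon or 5' UTR. Measured from the start of the canonical transcript in GENCODE v44, however, 13 of the 40 members (32.5%, 20.1 to 48.0%) had a summit within 2000 bp, against 5.05% of protein-coding genes. The exception among the genes with an entry was RRM2, whose canonical transcript starts 2073 bp downstream of the summit while another of its transcripts starts 32 bp downstream. All 14 genes (35% of members) had a summit within 2000 bp of the start of some transcript, against 5.83% of protein-coding genes.

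In the purine route, 3 of the 6 genes of ring assembly and 1 of the 4 that lead from the ring to AMP and GMP had an entry. GART carries out several of the reactions that build the ring and uses folate-bound carbon for one of them. Its peak (chr21:33541906-33542247) was covered at the summit by 16 ChIP fragments, its pileup (exact 95% Poisson interval 9.15 to 26.0), over a local background rate of 1.26. Fold enrichment, (pileup + 1) over (rate + 1), was 7.54, rank 158 of the 1900 peaks. The annotation enters the peak as an intron of GART and the promoter of SON, a divergent gene for an RNA splicing factor. The summit lay 25 bp inside the canonical GART transcript, in its 5' UTR, and 946 bp upstream of the SON start. By these starts it was nearer to GART. It lay 1399 bp inside the GENCODE gene start of GART, however, and the annotation names SON as nearest.

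PFAS, which makes formylglycinamidine ribonucleotide, had a peak at chr17:8249163-8249431 with a pileup of 15 (8.40 to 24.7) over a rate of 1.88 and a fold enrichment of 5.55. The summit was 25 bp upstream of the canonical PFAS start and 1208 bp upstream of the start of CTC1, a telomere maintenance gene that shares the entry. The PFAS E-box shown above was centred 75.5 bp downstream of the summit.

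ATIC, which carries out the last steps to inosine monophosphate, had a peak at chr2:215311868-215312201. Its pileup of 15, background rate of 1.88 and fold enrichment of 5.55 equalled those of PFAS. The summit lay 54 bp upstream of the canonical start, and the E-boxes of ATIC were centred 10.5 and 85.5 bp downstream of the summit, on opposite sides of that start. The deposited table enters this peak as 5' UTR and exon, from a gene start 188 bp upstream of the summit.

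GMPS, which aminates xanthosine monophosphate to GMP, stood apart. Its peak (chr3:155871026-155871250) had the highest pileup of the member peaks, 24 (15.4 to 35.7), and the lowest fold enrichment, 3.43, rank 1726.5. The background rate there was 6.28, the highest of the member peaks. The summit was 486 bp inside the gene, in an intron, the farthest of the 16 from any transcript start of its gene.

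No peak was named at PPAT, which commits material to the purine ring, or at PAICS, which shares a divergent promoter with it. The nearest summit on the chromosome was 4639 kb from the PPAT start. ADSL, ADSS (now named ADSS2), IMPDH1 and IMPDH2, PRPS1 and PRPS2, and the salvage enzymes HPRT1 and APRT also had none. The nearest summits to the IMPDH1 and APRT starts were 45.97 kb and 74.3 kb away, at peaks whose entries name HILPDA and PIEZO1.

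In the pyrimidine route, only 1 of the 5 genes of ring synthesis and CTP formation had an entry. DHODH, the mitochondrial enzyme that makes orotate, had a peak at chr16:72008567-72008896 with a pileup of 10 (4.80 to 18.4), a rate of 1.09 and a fold enrichment of 5.26. Its summit was 8 bp upstream of the canonical start, and GGGCGG was centred 6.5 bp from the summit. CAD, UMPS, CTPS1 and CTPS2 had no entry. At CAD, the enzyme of the opening reactions, a peak with a fold enrichment of 5.87 had its summit 5026 bp upstream of the canonical start, and its entries name SLC5A6 and ATRAID.

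Of the 6 genes for DNA precursors, RRM2 and TYMS had an entry. RRM2, the regulated subunit of ribonucleotide reductase, had a peak at chr2:10120529-10120926 with a pileup of 12 (6.20 to 21.0). Its background rate of 0.927 was the lowest of the member peaks, and the fold enrichment was 6.75, rank 281. TYMS, which makes thymidylate, had the weakest member peak by q-value, with a pileup of 11 (5.49 to 19.7), a fold enrichment of 4.18 and a q-value of 0.00331 at chr18:657403-657615. Its summit was 220 bp upstream of the TYMS start and lay inside the antisense gene TYMSOS, which shares the entry. RRM1, the partner subunit of RRM2, had no entry, and neither did TK1, DUT or DTYMK. The nearest summit to DTYMK was 14.5 kb upstream of its start, in an intron of ING5.

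NME1 and NME2 are adjacent genes for nucleoside diphosphate kinases, which charge nucleotides to triphosphates, and they are joined by the readthrough gene NME1-NME2. They carried 3 of the 16 peaks. The NME1 peak (chr17:51153441-51153890) had the highest fold enrichment of the members, 9.10, rank 71 of all peaks and 17 of the 576 promoter peaks. Its pileup was 19 (11.4 to 29.7), its summit was 11 bp inside NME1, and its E-box was centred 25.5 bp downstream of the summit.

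The other peaks of this locus lay at NME2. At chr17:51166218-51166468 the pileup was 15 (8.40 to 24.7) and the fold enrichment 5.55, with the summit 151 bp upstream of the canonical NME2 start. At chr17:51166692-51166889 the pileup was 17 (9.90 to 27.2) and the fold enrichment 5.63, with the summit 358 bp inside NME2. The E-boxes shown for NME2 belong to the latter, and 1 of them was centred 5.5 bp upstream of its summit, the closest of the 7. Both are entered as introns of NME1-NME2 and NME2, although the former lay upstream of the canonical start. The intervals of the 3 pileups overlap, so these peaks cannot be ranked by coverage.

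In the folate route, the genes for formyl-folate metabolism in the cytosol and in mitochondria each had an entry. MTHFD1, the cytosolic enzyme that interconverts folate-bound carbon units, had a pair of peaks. At chr14:64387790-64388033 the pileup was 13 (6.92 to 22.2) and the fold enrichment 4.86, and at chr14:64388272-64388517 they were 10 (4.80 to 18.4) and 4.88. The pseudogene TEX21P shares both entries, as an exon at the upstream peak and a promoter at the downstream one. The summits stood 397 bp upstream and 103 bp downstream of the canonical start. A CACGTG centred 12.5 bp upstream of that start lay between them, 115.5 bp from the nearer summit, and so outside the window of 100 bp. The upstream peak held GGGCGG at 4 positions and GGGGCGGGG at 2, the most of the member peaks.

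MTHFD1L, which releases formate from folate in mitochondria, had a peak at chr6:150866272-150866498 that reached 15 fragments (8.40 to 24.7) and was enriched 5.55-fold. Its summit was 676 bp inside the canonical transcript and 45 bp inside the nearest other transcript. The serine hydroxymethyltransferase genes SHMT1 (cytosol) and SHMT2 (mitochondria), which load folate from serine, had no entry. Their nearest summits were 527.1 kb and 496.8 kb away.

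In the methionine cycle, the gene that makes the methyl donor and the gene that removes its by-product both had broad peaks. AHCY, which removes S-adenosylhomocysteine, had a peak of 709 bp (chr20:34302876-34303584) with a pileup of 23 (14.6 to 34.5), a rate of 2.20 and a fold enrichment of 7.51, rank 167. It is entered as an intron, 8735 bp inside the gene start of the table, but its summit was 288 bp inside the canonical transcript. MAT2A, which makes S-adenosylmethionine, had the longest member peak, 882 bp (chr2:85539090-85539971), rank 10 of all peaks by length. Its pileup was 15 (8.40 to 24.7) over a rate of 1.38, its fold enrichment 6.73, and its summit 297 bp inside the gene. The median length was 260 bp over the 16 member peaks and 246 bp over all peaks.

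Of the polyamine genes, AMD1 alone had an entry. It encodes the decarboxylase that supplies the aminopropyl group, and its peak (chr6:110875403-110875649) had a pileup of 14 (7.65 to 23.5), a rate of 1.26 and a fold enrichment of 6.65. The summit was 691 bp inside the gene, and CACGCG, which differs from the E-box by a base, was centred 2.5 bp from it. ODC1, which opens polyamine synthesis, and the synthase genes SRM and SMS had none. The summit nearest to the ODC1 start was 145.6 kb away, at the promoter of HPCAL1.

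**Figure D2:**
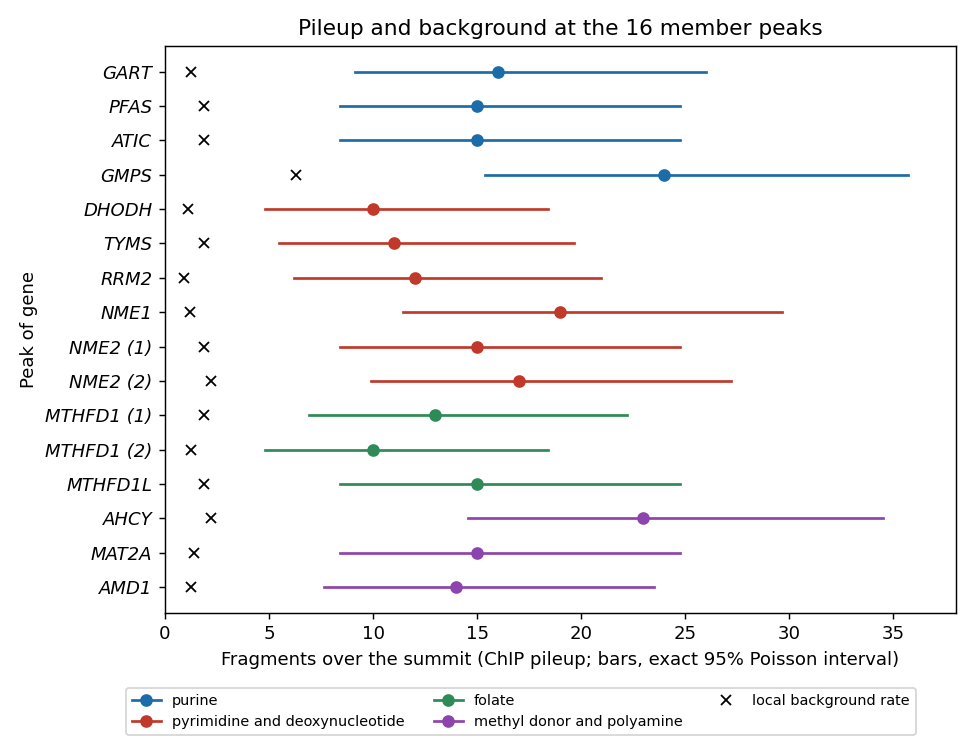
Points give the ChIP pileup at the summit in fragments for each of the 16 member peaks, lines its exact 95% Poisson interval and crosses the local background rate, coloured by route; numbers in brackets separate peaks of the same gene. Every interval begins above its cross, which peak calling at a q-value of 0.05 already required, so this adds no support. The crosses are drawn without their own error. Pileups run from 10 fragments, as at DHODH, to 24 at GMPS, which has the highest cross at 6.28.

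As a group, the member peaks were of ordinary size for this table. Pileups ran from 10 to 24 with a median of 15, against 13 over all 1900 peaks and 13 over the promoter peaks. Fold enrichments ran from 3.43 to 9.10 with a median of 5.55, against 5.06 over all peaks and 5.20 over promoter peaks. Of the 16 peaks, 12 were above the median of promoter peaks, and the other 4 were those of MTHFD1, TYMS and GMPS. Peaks of PFAS, ATIC, MTHFD1L and the upstream peak of NME2 shared exactly the same pileup and rate, so their order by strength is undefined.

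**Figure D3:**
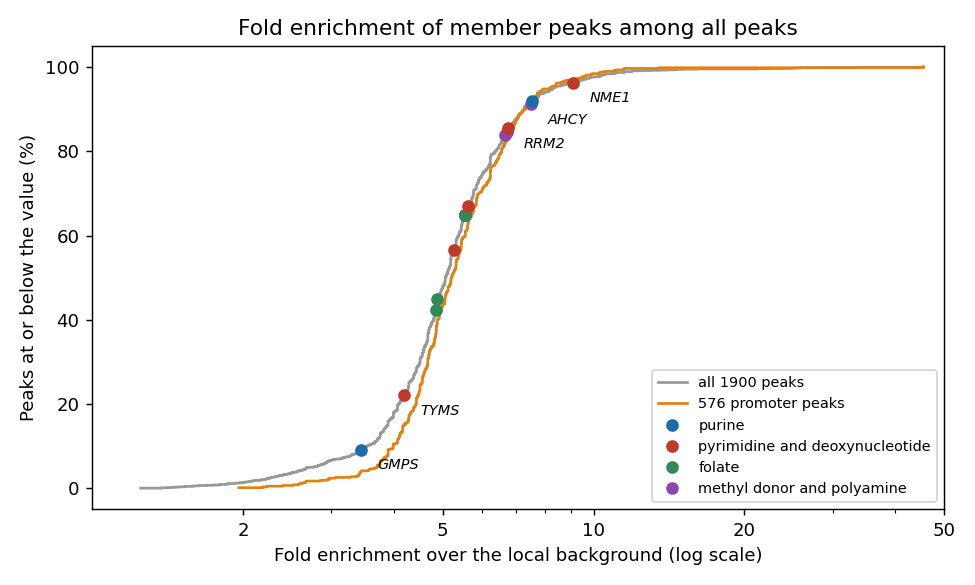
Lines give the cumulative percentage of all 1900 peaks and of the 576 promoter peaks by fold enrichment (log axis), and points place the 16 member peaks on the line of all peaks, coloured by route. GMPS is lowest at 3.43 and NME1 highest at 9.10, with the others between.

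The summits lay close to transcript starts. The summit was within 100 bp of a transcript start of its gene at 10 of the 16 peaks and within 250 bp at 15, or 93.8%. For the 1155 other peaks with an entry of a protein-coding gene, the share within 250 bp was 61.6%. AHCY lay at exactly 250 bp, so that share rests in part on the limit, and within 100 bp the shares were 62.5% and 42.6%. The median distance, without regard to side, was 81.0 bp for member peaks and 138.0 bp for the others. Relative to canonical starts, 9 of the summits were downstream and 7 upstream. The sequence was mostly single-copy: 14 of the 16 peaks held no 31-base word that occurs elsewhere in GRCh38, the most in any was 1.87% (MTHFD1, upstream peak), and none was in a dense run of peaks.

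**Figure D4:**
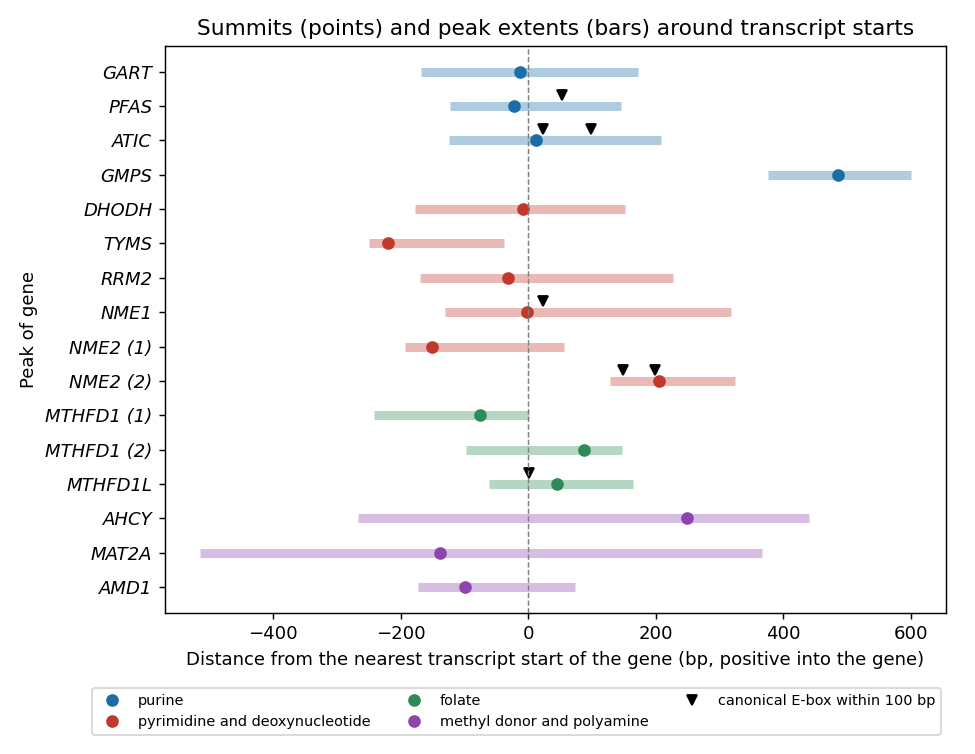
Points give each summit and bars the extent of each of the 16 member peaks, in bp from the nearest transcript start of the gene (dashed line, positive into the gene), with triangles at canonical E-boxes within 100 bp of the summit. All summits but that of GMPS, at 486 bp, fall within 250 bp of the line, and the triangles mark PFAS, ATIC, NME1, NME2 and MTHFD1L.

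The motif content of the member peaks was near that of other peaks at gene starts. Motifs were searched as exact letters on both strands within 100 bp of the summit. CACGTG was present at 5 of 16 member peaks (31.2%, 14.2 to 55.6%) and at 26.2% of the 861 other peaks within 2000 bp of a canonical protein-coding start. At the canonical starts of all protein-coding genes, in windows of the same length, the share was 5.66%. GGGCGG was present at 12 of 16 member peaks (75.0%, 50.5 to 89.8%), against 70.5% of those other peaks and 53.7% of all starts. The longer GGGGCGGGG, which contains GGGCGG, was present at 2 of 16, MTHFD1 and MAT2A (12.5%, 3.50 to 36.0%), against 21.3% of the other peaks. CACGCG was present at 5 of 16 (31.2%), against 28.5%. GGGTGGG was present at 3 of 16 (18.8%), against 16.7%, and CATGTG at 0 of 16, where the interval reaches 19.4%, against 10.3%. Of the 16 peaks, 4 held both CACGTG and GGGCGG, those of PFAS, ATIC, MTHFD1L and the downstream peak of NME2, and 3 held neither, those of TYMS and AHCY and the downstream peak of MTHFD1.

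Peaks with and without CACGTG had close medians. The median fold enrichment was 5.55 with the E-box and 5.55 without it, and the median pileup was 15 and 14 fragments. The GC content within 100 bp of the summit ranged from 58.7 to 78.6% with a median of 70.4%, against 69.7% at promoter peaks. These are descriptions of letters in a window and do not say which protein was bound.

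E-boxes were also found at members without a peak. In windows of 100 bp either side of the canonical start, CACGTG was present for 4 of the 14 genes with an entry (28.6%, 11.7 to 54.6%) and 2 of the 26 without (7.69%, 2.14 to 24.1%), CAD and SHMT1. In windows of 500 bp either side, it was present for 6 of 14 (42.9%) and 11 of 26 (42.3%), against 18.3% of all protein-coding genes. Among those without a peak, PAICS and ODC1 each had 3 positions, and PPAT, ADSL, CAD, SHMT2 and SRM had 2 each, 1 of which PPAT and PAICS share. The sites near the CAD start (chr2:27217439-27217468) and the SHMT1 start (chr17:18363447-18363476), chosen after the counts were seen, are shown on the strand of the gene because they can be set beside those under peaks. They were centred 84.5 and 88.5 bp inside the gene.
CAD: cgcgccgttagcCACGTGgaccgactccgg
SHMT1: ggagcggctggtCACGTGgctggcccgcgg

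The absence of a peak is limited by depth. The lowest pileup of any listed peak was 7 fragments, and no site covered by fewer fragments was listed. That value was reached at the lowest background rate, 0.927, and where the local rate is higher more fragments are needed. Read totals are not in the table, and the members without an entry were not detected at this depth rather than shown to be unbound.

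Beyond the 40 members, 108 further genes of the same routes were looked up, and 14 of them had an entry (13.0%, 7.88 to 20.6%), against 6.34% of protein-coding genes. By route these were 4 of 24 for purines, 4 of 28 for pyrimidines and deoxynucleotides, 3 of 15 for folate, 1 of 13 for serine and glycine, and 2 of 28 for methyl donors and polyamines. The count of 14 depends on the rule. With a summit required within 2000 bp of the gene start it was 6 of 108, beside 4.70% of protein-coding genes. The strongest of the 14 was MTHFD2, the mitochondrial enzyme that acts in sequence with MTHFD1L and is known for high levels in tumours. A peak 383 bp long, entered as its 5' UTR and exon, reached 25 fragments (16.2 to 36.9) and was enriched 11.5-fold, rank 23 of all peaks and above each member. Its summit was 48 bp upstream of the canonical start, with no CACGTG within 100 bp. A weaker MTHFD2 peak in an intron reached 9 fragments, a fold enrichment of 3.89.

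In the folate group, FPGS, which adds glutamates to folate and keeps it in the cell, had an intron peak with 13 fragments, enriched 5.45-fold. SLC25A32, the carrier of folate into mitochondria, had a promoter peak shared with DCAF13, with 12 fragments and 4.51-fold enrichment. In the purine group, AMPD2, an AMP deaminase, had a promoter peak with a fold enrichment of 6.81 and its summit 21 bp upstream of the canonical start. PNP, a purine nucleoside phosphorylase, had 4.76, and AK6 had 5.06, at an entry shared with TAF9 and RAD17.

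In the pyrimidine group, the uridine kinase gene UCK2 had a pair of peaks with fold enrichments of 6.50 and 4.93, its relative UCKL1 had a promoter peak with 5.30, and UPB1, of pyrimidine breakdown, had 4.40. TK2, the mitochondrial thymidine kinase, had 6.65, but the summit was 33170 bp inside its canonical transcript, at an entry shared with AC010542.3. The serine transporter gene SFXN3 had 5.76, with its summit 1768 bp inside the gene. The polyamine genes AZIN1, an inhibitor of antizyme, and SMOX, spermine oxidase, had 3.89 and 4.88. CACGTG lay within 100 bp of a summit at AMPD2, AK6, UCKL1, TK2 and FPGS. Entries were also shared at AMPD2 (with GNAT2), MTHFD2 (AC073263.2), UCK2 (TMCO1), UCKL1 (UCKL1-AS1), SFXN3 (PDZD7) and AZIN1 (AZIN1-AS1).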

How the data were processed

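ChIP-seq data of CAL27 cells with myc-tagged KLF7 (1 ChIP and 1 input library) were analysed from the peak table deposited by the authors. Per the methods and the submitters' processing notes, the authors trimmed reads with Trimmomatic, mapped them with BWA to hg38, removed duplicates with Samtools, called peaks with MACS2 at a q-value of 0.05 and annotated them. The deposited pileup is an unscaled signal that counts overlapping ChIP fragments. Fold enrichment was deposited as a ratio, (pileup + 1) over (background rate + 1), from which the rate was recovered. P and q were deposited on a -log10 scale, from Poisson tests. A p recomputed from the rate differed from the deposited one by at most 0.00206% in 1898 peaks.

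Members and lists were chosen with earlier results of these data known. All 40 members were named, with values for those with an entry. A further 108 pathway genes were listed by route, and those with an entry were named, except for a result that is not reported here. All 40 symbols were matched in GENCODE v44, ADSS through its current name. Of 1706 names in the entries, 1439 were matched. Table gene starts count from 0 and were shifted by 1. Distances were measured to the Ensembl canonical transcript start unless another start is named, positive into the gene. Dense runs were at least 5 peaks with neighbours within 100 kb. Ties shared their mean rank. The motif search was tested on simulated sequence of A and T only, where no other match can arise. It found 480 of 480 planted motifs, which checks the search itself and not chance matches in GC-rich sequence.

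Intervals are 95% Wilson (shares) and exact Poisson (pileups) and cover counting error only. No test between conditions could be made with 1 library of each kind, and none was run over genes or peaks. Alternatives covered stricter q-values, fold enrichment, pileup, the assignment of peaks to genes and the motif window. Computations used scipy 1.17.1, pysam 0.24.0, numba 0.67.0, pandas 2.3.3, numpy 2.4.6 and matplotlib 3.10.9 in Python 3.11.15.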

Additional observations from a re-analysis of the deposited data

How the results depend on the processing

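Over 14 results, 72 alternative values were computed. Of these, 59 stayed within their limits (1.5 times for counts, the Poisson interval for median pileup and fold enrichment, and 130 bp for the median distance). The count of 14 members with an entry was 14 where q was under 0.01 and where at least 10 fragments were required, 13 with a q-value under 0.001 (TYMS lost) and 11 with a fold enrichment of at least 5 (GMPS, TYMS and MTHFD1 lost), while the shares of protein-coding genes, in that order, were 5.97%, 5.53%, 4.96% and 3.88%. With a fold enrichment of at least 5, protein-coding genes with an entry fell to 776, folate members to 1 and members with a promoter entry to 3. With the nearest gene of each peak in place of the entries, purine members fell to 2. By the same rule all members fell to 11 of 40 (27.5%) and protein-coding genes to 4.49%. The rule of a promoter entry, met by 5 members, was also replaced by rules without a promoter condition. These gave 11 members by nearest gene and 13 by a summit within 2000 bp of the gene start. By that last rule, further pathway genes fell from 14 to 6 of 108, beside 4.70% of protein-coding genes (941 of 20007). By the canonical start, an alternative chosen after seeing the data, they were 12 of 108, beside 5.05% of protein-coding genes. The median distance of the summit from the gene start of the table was 425 bp downstream (13 peaks). It was -53.5 bp for those with a promoter entry of any gene, the peaks of TYMS and RRM2 and the pair of MTHFD1. Chosen after seeing the data, the median was 18 bp from the canonical start and -10.5 bp from the nearest transcript start. The values from these transcript starts use all 16 peaks, and the cause of the shift was not tested. Peaks with GGGCGG numbered 12 of 16, with 7 (43.8%) within 50 bp of the summit, against 47.7% of other promoter peaks. Among the 7 member peaks with a promoter entry of any gene, 4 had it within 100 bp (57.1%), against 68.3% of other promoter peaks. Peaks with CACGTG numbered 5 of 16, including 2 of these 7 (28.6%), against 26.8% of other promoter peaks. No paired analysis was possible because each group has 1 library. The depth limits detection to sites of about 7 fragments or more where the background rate is lowest (0.927), and of more fragments where it is higher.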

Other observations

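The pathway field that the authors attached to the nearest gene of each peak grouped the same peaks in another way. No share over all genes was computed for it, so its counts cannot be read as high or low. It placed 11 peaks at 10 genes in purine metabolism, 4 of them members, and 10 peaks at 9 genes in pyrimidine metabolism, 4 of them members. The purine genes are as the field gives them and include RPL35A and AP2S1. Those of pyrimidine metabolism include AC010542.3. The folate pool was named at 6 peaks of 5 genes, ATIC, MTHFD1, MTHFD1L, MTHFD2 and TYMS, of which 4 are members. Cysteine and methionine metabolism was named at 6 peaks of AHCY, AMD1, APIP, GCLM, LDHA and MAT2A, with a median fold enrichment of 6.69. Besides the members, these include GCLM, a subunit of the enzyme that opens glutathione synthesis, and APIP, of methionine salvage. Glycine, serine and threonine metabolism was named at 1 peak, of GRHPR, a glyoxylate reductase. The field follows the nearest gene alone, so GART and PFAS, whose peaks are nearest to SON and CTC1 in the table, are not among its genes.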
